A study of Arabidopsis thaliana with 2 samples.

Results

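Nitrate enters nitrogen metabolism through reduction to nitrite and then to ammonium, and the genes described here encode the enzymes of these steps and the proteins that supply them with cofactor and electrons. The 9 genes were taken by locus tag: NIA1, NIA2, NIR1, UPM1, G6PD2, G6PD3, RFNR1, RFNR2 and FD3. Peaks were counted at a gene when they overlapped its body, or 3000 bp on either side of it, by at least 1 bp. By that rule 18 of the 8002 peaks in the list belonged to these genes, which are 9 of 27444 annotated protein-coding genes.

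The list came from chromatin immunoprecipitation with sequencing (ChIP-seq), which recovers and sequences the DNA bound by a chosen protein, on TGA1-GFP roots of Arabidopsis thaliana. TGA1 belongs to the TGA group of bZIP transcription factors, and GFP is the fluorescent tag by which the antibody recovers it. The titles name 1 library with the GFP antibody and 1 with IgG, an antibody preparation for which the labels state no target, both from TGA1-GFP roots cross-linked with 1% formaldehyde. There was no replicate of either. The protocol text, which is the same for both libraries, names GFP antibodies only. The promoter driving the fusion, the genetic background, the number of lines, the plants' age and their nitrogen supply are not given in these sources.

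Nitrate reductase, encoded by NIA1 and NIA2, reduces nitrate to nitrite in the cytosol with electrons from NAD(P)H and a molybdenum cofactor. Nitrite reductase, encoded by NIR1, reduces nitrite to ammonium in the plastid, using sirohaem as a cofactor and reduced ferredoxin as the electron donor. Root plastids have no light reactions to reduce ferredoxin, so NADPH from the oxidative pentose phosphate pathway is used instead, passed on by a root-type ferredoxin-NADP reductase (FNR).

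The list gives each peak's chromosome, start and end and no height, fold enrichment or p-value, and the number of reads behind a peak is unknown. Peaks are therefore described by position, width and place in the list, and the file does not say what its order stands for. With 1 list there is no spread between replicates and no test between genes was made. The gene annotation carries no strand, so the ends of a gene are called its lower-coordinate and higher-coordinate end. All coordinates are on TAIR10.

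TGA1-GFP peaks were found at 7 of the 9 genes, but they were spread unevenly along the pathway. Over all protein-coding genes, 40.5% had a peak under the same rule. With 1000 bp on either side in place of 3000 bp, 5 of 9 members and 26.7% of protein-coding genes had one. NIA1 and NIA2 together held 11 of the 18 peaks, and the other 7 genes held the remaining 7. NIA2 had 6 peaks and NIA1 had 5, NIR1 and RFNR2 had 2 each, UPM1, G6PD2 and FD3 had 1 each, and G6PD3 and RFNR1 had none. At least 2 peaks were thus found at 4 of 9 members, and at 16.1% of protein-coding genes. The median was 1 peak per member, against 0 over all protein-coding genes. A median of 6.59% of the bases in the members' windows lay under a peak, against 0% over all protein-coding genes, where the upper quartile was 5.45%. The members were longer than most genes, with a median length of 3207 bp against 2078 bp; the part of gene length in these counts was not tested.

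**Figure D1:**
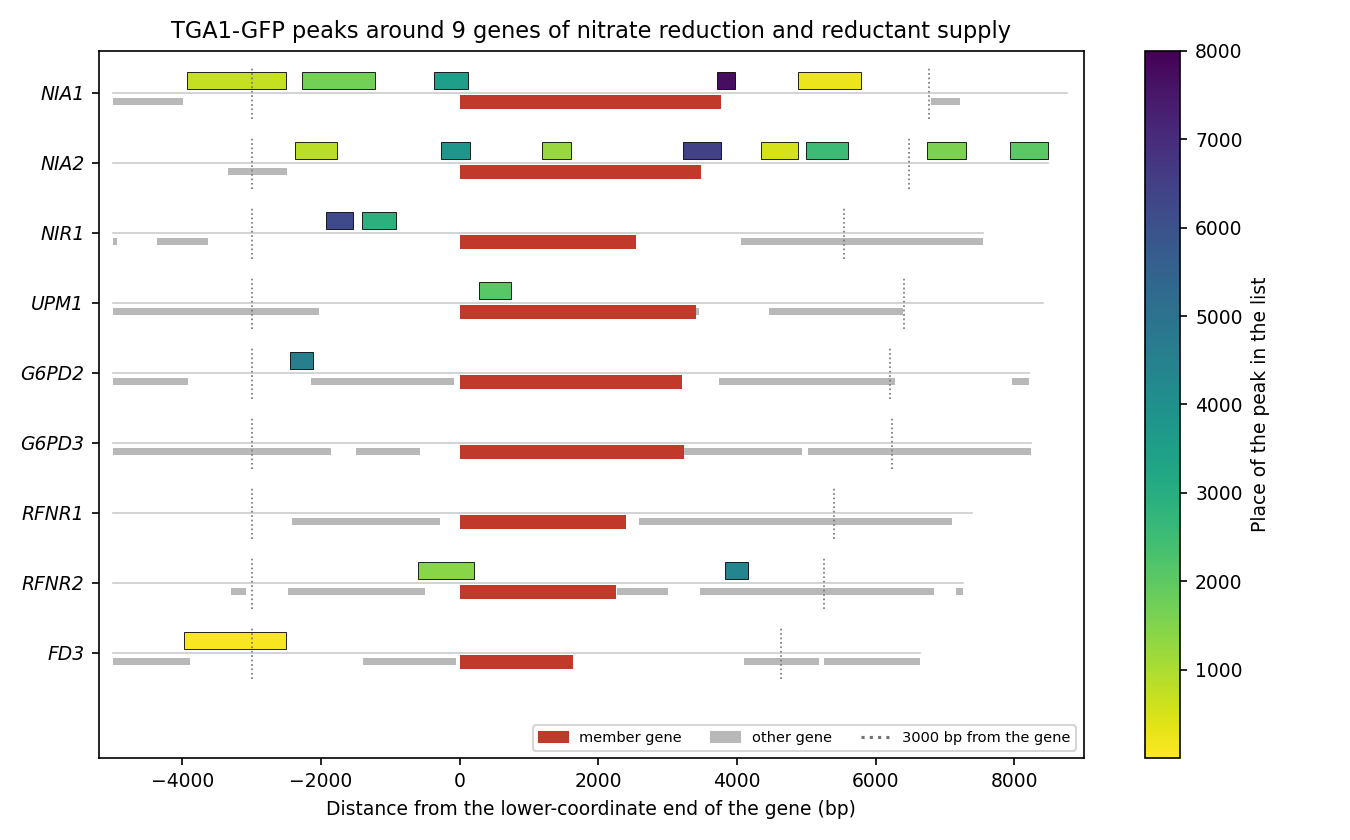
Peaks around each of the 9 genes, with distance from the lower-coordinate end of the gene in bp on the horizontal axis. Red bars are the member genes, grey bars other annotated genes, boxes above them the peaks coloured by place in the list, and dotted lines mark 3000 bp from the gene. NIA1 and NIA2 have peaks over both gene ends and on both flanks, NIR1 has 2 on one side, and no peak lies within 5000 bp of G6PD3 or RFNR1.

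At least 5 peaks, as at NIA1, were found at 0.441% of protein-coding genes, and at least 6, as at NIA2, at 0.0765%, which is 21 genes. The outermost of the 5 peaks at NIA1 had its midpoint outside the window, with 502 of its 1431 bp inside. It would not count under a midpoint rule. Peaks covered 33.1% of the window at each of the nitrate reductase genes, a level reached by 0.82% of protein-coding genes for NIA1 and 0.823% for NIA2. Both genes stand in open stretches. NIA1 has 7035 bp and NIA2 has 10894 bp of gene-free sequence on the 2 sides added together, and 4.21% and 0.944% of protein-coding genes have as much. Among the 424 protein-coding genes with no other gene within 3000 bp, 49.3% had a peak, 2.36% had at least 5 and 0.472% had at least 6. NIA1 belongs to this group, and NIA2 does not because of a long non-coding RNA gene, AT1G07013, 2482 bp away. The part of flank length in the number of peaks was not tested.

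**Figure D2:**
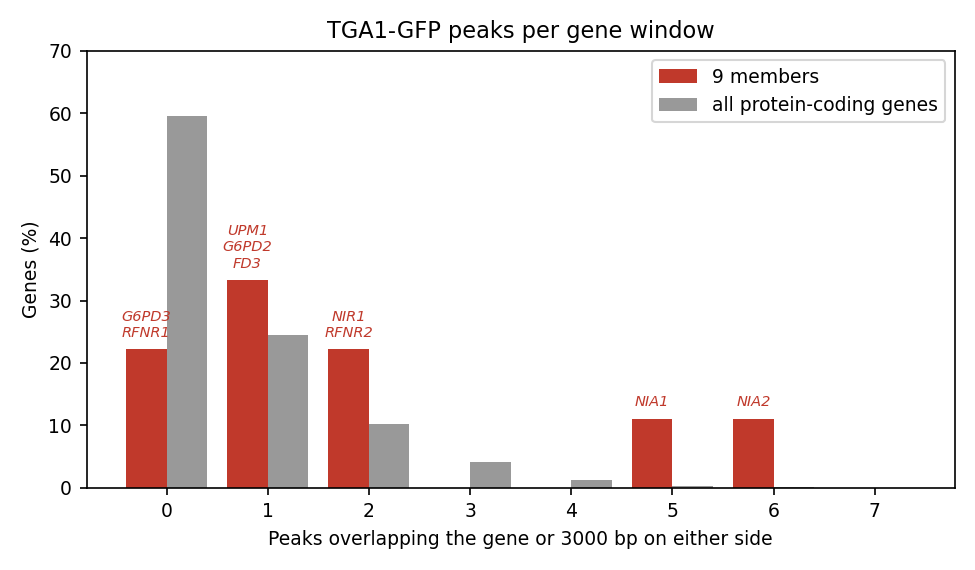
Number of peaks overlapping each gene or 3000 bp on either side of it, with the share of genes in percent on the vertical axis, for the 9 members (red) and for all 27444 protein-coding genes (grey). Of the members, NIA1 with 5 peaks and NIA2 with 6 lie where 0.364% and 0.0656% of protein-coding genes lie, and 59.5% of protein-coding genes have no peak.

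NIA1 (AT1G77760; chromosome 1, 29235721 to 29239484) is one of the paired nitrate reductase genes of Arabidopsis. A 496 bp peak (29235346 to 29235841) lay across its lower-coordinate end, with 121 bp inside the gene and 375 bp outside. A 270 bp peak (29239427 to 29239696) lay across its higher-coordinate end, with 58 bp inside the gene. These were the narrowest of its peaks and stood at places 3559 and 7735 of the list. The wider peaks lay farther out and earlier in the list. On the lower-coordinate side a peak of 1052 bp (29233444 to 29234495, place 1698) was centred 1752 bp from the gene. Beyond a gap of 221 bp followed a 1431 bp peak at place 702 (29231792 to 29233222), of which 502 bp were within 3000 bp of NIA1. Its midpoint was 3214 bp from NIA1 and 780 bp from the neighbouring gene AT1G77750, so it lay closer to that gene. On the higher-coordinate side a peak of 916 bp (29240600 to 29241515, place 248) was centred 1573 bp from NIA1, with no other gene within 1000 bp. No peak lay wholly inside NIA1.

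NIA2 (AT1G37130; chromosome 1, 14158452 to 14161938), which encodes the form that accounts for most nitrate reductase activity in seedlings, likewise had a peak across each end. The peak at the lower-coordinate end was 420 bp wide (14158179 to 14158598, place 3806), with 147 bp inside the gene. The peak at the higher-coordinate end was 550 bp wide (14161673 to 14162222, place 6468), with 266 bp inside the gene, and its midpoint was 9 bp outside it. Unlike NIA1, NIA2 also had a peak wholly inside the gene, 426 bp wide at place 1247 (14159641 to 14160066), with its midpoint at 40.2% of the gene's length counted from the lower-coordinate end. On that side a peak of 597 bp (14156085 to 14156681, place 837) was centred 2069 bp from NIA2 and 414 bp from AT1G07013. On the other side peaks of 538 bp at place 525 (14162801 to 14163338) and 613 bp at place 2547 (14163447 to 14164059) were separated by 108 bp, and no other gene was within 1000 bp of their midpoints. The run went on past the window. A peak of 558 bp at place 1591 (14165197 to 14165754) began 3259 bp from the gene. Another of 625 bp at place 2047 (14166393 to 14167017) began 4455 bp from it. Thus 5 peaks overlapped the 8412 bp of gene-free sequence on this side, and 8 peaks lay within 5000 bp of NIA2. With 5000 bp on either side, 51.8% of protein-coding genes had a peak, and the share with as many as 8 is not given here.

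The paired genes thus shared a layout: a peak across each gene end and further peaks in both flanks. Separate peaks across both ends were found at 1.16% of protein-coding genes, and at 4.72% of those with no other gene within 3000 bp. Most protein-coding genes had too few peaks for this layout, and it was found at 9 of the 21 genes with at least 6 peaks. The part of peak number in it was not tested. At both NIA1 and NIA2 the peaks across the gene ends came later in the list than all their other peaks. The 4 end peaks stood at places 3559 to 7735 and were 270 to 550 bp wide (median 458 bp), and the 7 other peaks stood at places 248 to 2547 and were 426 to 1431 bp wide (median 613 bp). The same order held at 59 of the 223 protein-coding genes, 26.5%, that had peaks across both ends and at least 1 other peak, NIA1 and NIA2 included. The order is met more easily with fewer other peaks, and the 223 genes were not matched to NIA1 and NIA2 in this number. Pooled over the whole list, a different measure from the order within a gene, peaks across a protein-coding gene end had a median place of 3526.5. All other peaks had a median place of 4341. The median widths of these 2 sets were 464.5 and 413 bp. This layout was noticed after the positions were seen and is given as a description.

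**Figure D3:**
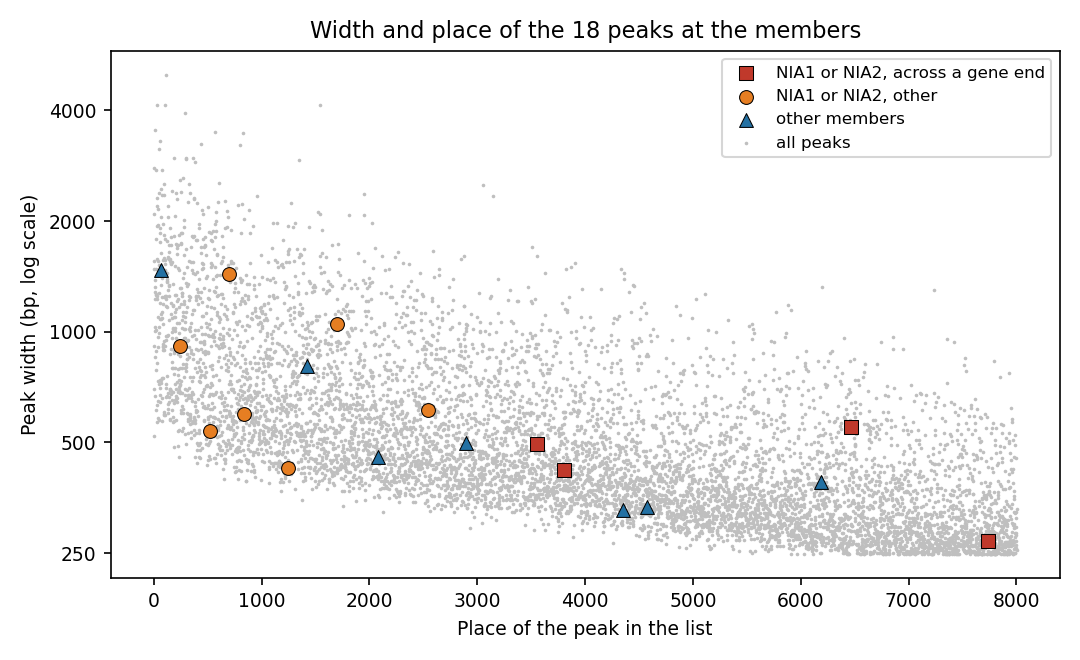
Width in bp (log axis) against place in the list for all 8002 peaks (grey) and the 18 peaks at the members. Squares are the 4 peaks across an end of NIA1 or NIA2, at places 3559 to 7735, circles are their 7 other peaks, at places 248 to 2547, and triangles are the 7 peaks at the other members, from place 64 to place 6191.

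NIR1 (AT2G15620; chromosome 2, 6810395 to 6812941), the nitrite reductase gene, had peaks on its lower-coordinate side only. A 499 bp peak at place 2900 (6808987 to 6809485) ended 910 bp from the gene. A 391 bp peak at place 6191 (6808468 to 6808858) lay 128 bp farther out, with its midpoint 1732 bp from NIR1. No other gene lay within 1000 bp of either midpoint, and NIR1 has 3630 bp free of genes on this side. On the other side the nearest peak began 23357 bp away. Peaks covered 10.4% of the NIR1 window, and 13.2% of protein-coding genes reached that share.

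UPM1 (AT5G40850; chromosome 5, 16365900 to 16369316) encodes uroporphyrinogen III methyltransferase, which starts the branch of tetrapyrrole synthesis that leads to sirohaem. Its 457 bp peak at place 2079 (16366187 to 16366643) lay wholly within the gene and was centred 515 bp from the lower-coordinate end, at 15.1% of the gene's length. The nearest peaks outside UPM1 were 29713 and 16907 bp away on the 2 sides, so this was the only peak in the window. Such distances over the whole list are not given here, so none at a member is read as a trait of it. No other annotated gene lay within 1000 bp of its midpoint.

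Among the 5 genes of reductant supply, 3 had a peak in the window, and at RFNR2 alone did a peak overlap the gene itself. Over all protein-coding genes, 14.9% had a peak overlapping the gene body. RFNR2 (AT1G30510; chromosome 1, 10806930 to 10809188) encodes a root-type FNR, which passes electrons from NADPH to ferredoxin. An 807 bp peak at place 1418 (10806330 to 10807136) filled the 501 bp between RFNR2 and its neighbour NF-YA7, a subunit of the CCAAT-binding NF-Y complex. It reached 207 bp into RFNR2 and 99 bp into NF-YA7, and its midpoint was 197 bp from RFNR2 and 305 bp from NF-YA7. From position alone the peak cannot be given to either gene. The other peak in the RFNR2 window, 327 bp wide at place 4349 (10810758 to 10811084), lay wholly inside AAE14, a gene of phylloquinone synthesis, with its midpoint 1733 bp from RFNR2 and the gene AT1G30515 between them.

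RFNR1 (AT4G05390; chromosome 4, 2738531 to 2740927), which encodes the other root-type FNR, had no peak in its window. The nearest peaks were 20049 bp away on the lower-coordinate side and 616797 bp away on the other, a stretch of chromosome 4 with no peak in the list. RFNR1 and RFNR2 have similar amounts of gene-free flank, 471 and 512 bp. The loci were not matched in other respects, and what lies behind their unlike peak counts was not tested.

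The paired plastid glucose-6-phosphate dehydrogenases G6PD2 and G6PD3 catalyse the entry into the oxidative pentose phosphate pathway, where NADPH is made. G6PD2 (AT5G13110; chromosome 5, 4158639 to 4161845) had a single peak of 333 bp (4156191 to 4156523, place 4572), centred 2282 bp from the gene. The gene AT5G13100 stands between them: the peak overlapped 23 bp of it, and its midpoint was 144 bp from that gene. At this width the peak was narrow, and 75.4% of all peaks were at least as wide. G6PD3 (AT1G24280; chromosome 1, 8609338 to 8612580) had no peak, and the nearest were 48845 and 41735 bp away on the 2 sides. Gene-free flanks came to 612 bp at G6PD2 and 574 bp at G6PD3.

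FD3 (AT2G27510; chromosome 2, 11757955 to 11759588) encodes the ferredoxin of non-photosynthetic plastids. The widest and earliest of the 18 peaks, 1474 bp at place 64 (11753984 to 11755457), met the rule at FD3 by its edge only. Of its bases, 503 lay within 3000 bp of FD3, and its midpoint was 3235 bp from FD3 and 654 bp from AT2G27500, which it overlapped by 83 bp. The annotated genes AT2G27505 and AT2G27507 stand between this peak and FD3. Of all peaks, 2.94% were at least as wide. This peak and the outermost peak of NIA1 were the 2 peaks of the 18 that reached past the 3000 bp limit. When a midpoint within the window was required, FD3 had no peak, and 6 of 9 members and 38.9% of protein-coding genes had one.

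Taken over the 18 peaks, the median width was 518.5 bp against 434 bp for the whole list, and 12 were at least as wide as the median of the list. In the first 4001 of the 8002 places stood 13 of them, and in the first 500 places 2, the 916 bp peak near NIA1 and the 1474 bp peak near FD3. Midpoints of 2 peaks lay inside a member gene, at NIA2 and UPM1, and 7 peaks overlapped the body of a member, 5 of them at the nitrate reductase genes. The shares of all peaks inside or over a gene body are not given here, so no trait of the members is read from these counts.

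Other genes of the same pathways were counted as well, 37 in 4 lists that hold 6 of the members besides. A peak lay in the window of 18 of the 37, or 48.6%, beside 40.5% of all protein-coding genes. None of the 37 had more than 2 peaks. Over all protein-coding genes, 4.14% had 3 peaks, 1.21% had 4 and 0.441% had at least 5. Separate peaks across both ends were found at none of the 37, beside 1.16% of all protein-coding genes. With shares this low, few such genes would be looked for among 37, and nothing particular to the lists is read from these counts. The pentose phosphate list also holds transketolase and transaldolase genes, which belong to the non-oxidative branch of the pathway. In this list 8 of 16 genes had a peak in the window, and 5 of 16 had a midpoint inside the gene or within 1000 bp, beside 24.6% of all protein-coding genes under that midpoint rule. These were G6PD4, the lactonase genes PGL1 and PGL2, the transketolase gene TKL2 and the transaldolase gene TRA2, with peaks of 372, 383, 339, 368 and 350 bp. PGL2 had 2 peaks in its window, 1 of them outside the midpoint rule, and the 2 together covered 19.8% of the window. At G6PD4, TKL2 and TRA2 the peak was also within 1000 bp of another protein-coding gene (ACLA-3, RAD51C and AT5G13430). G6PD1, the plastid form of green tissue, and the cytosolic G6PD5 had no peak in the window. The cytosolic G6PD6 had 2, none with a midpoint within 1000 bp.

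Of the other ferredoxin and FNR genes 3 of 7 had a peak in the window, and none was overlapped by one. FDC1, a ferredoxin-like protein gene, had 2 peaks in its window, which together covered 15.7% of it. The 1 with a midpoint within 1000 bp was 296 bp wide and centred 358 bp away. It was also within 1000 bp of the cysteine synthesis gene OASA1. The leaf-type reductase genes LFNR1 and LFNR2 had 0 and 1 peaks, and the leaf ferredoxin genes FD1 and FD2 had 0 and 2. Of the other genes of sirohaem and early tetrapyrrole synthesis, with sulfite reductase, 3 of 6 had a peak in the window. HEME1, a uroporphyrinogen decarboxylase gene of the haem and chlorophyll branch, had 2 peaks in its window, 1 of them of 1058 bp (place 346) centred 616 bp away. SIR, the sulfite reductase gene, whose enzyme uses sirohaem and ferredoxin as nitrite reductase does, had a 412 bp peak across a gene end at place 6215, which was also within 1000 bp of DME. SIRB, which encodes the ferrochelatase that completes sirohaem, had none.

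Of 8 genes that make the molybdenum cofactor of nitrate reductase or transport molybdate, 4 had a peak in the window, and each of these also met the midpoint rule, which 24.6% of all protein-coding genes met. CNX3 and CNX2, which act at the start of cofactor synthesis, had peaks of 945 and 488 bp, CNX7, a molybdopterin synthase subunit gene, one of 335 bp, and MOT1, a molybdate transporter gene, one of 495 bp. CNX2 had 2 peaks in its window, 1 of them outside the midpoint rule. The peaks given for CNX2, CNX3 and CNX7 were each also within 1000 bp of another gene. CNX1, CNX5, CNX6 and MOT2 had no peak in the window. Under the 3000 bp rule the shares of the 4 lists lay between 42.9% and 50% for the genes that were not members, beside the 40.5% of all protein-coding genes. Lists of 6 to 16 genes are small, and nothing particular to them is read from these counts.

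**Figure D4:**
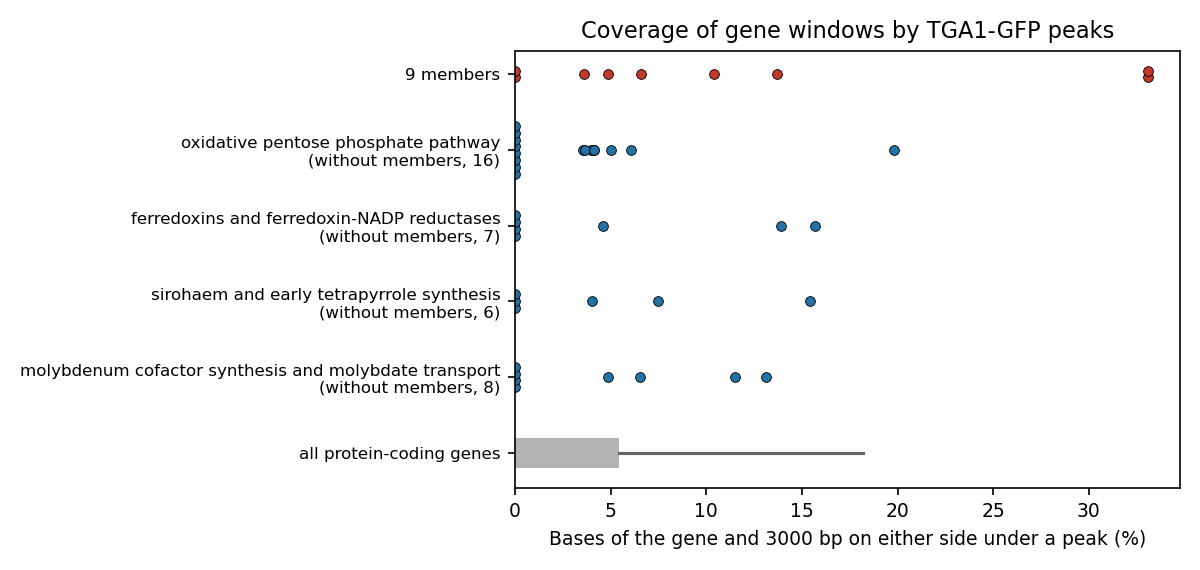
Percent of the bases of each gene and 3000 bp on either side that lie under a peak, 1 point per gene, for the 9 members (red) and for the other genes of 4 pathway lists (blue). The grey bar runs from the lower to the upper quartile of all protein-coding genes (0 to 5.45%) and the line on to the 95th percentile (18.2%). The points at 33.1% are NIA1 and NIA2, and no other gene shown exceeds 19.8%.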

How the data were processed

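Per the submitters' processing notes, the authors used Bowtie2 and MACS2 with the TAIR10 build. The sources used here give no versions, thresholds or filters and do not name the control in peak calling. The deposited file is a single list of 8002 peaks with 3 columns (chromosome, start, end) and no peak value. Starts were taken to count from 0, as in BED files, and 1 was added for printing. Width is end minus start by that convention, and the midpoint stands for the summit. Genes came from a RefSeq table (assembly TAIR10.1), which keeps the nuclear chromosomes of TAIR10. It holds 37899 genes on the 5 nuclear chromosomes, of which 27444 are protein-coding, and gives no strand or sequence. All 9 members and all 43 list genes matched by locus tag. Those for which the table gives another symbol carry the name of the list.

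Windows were the gene and 3000 bp on either side, and any overlap of 1 bp counted. The background is the share of all protein-coding genes that met the same rule. No test was made, since 1 list has no replicates. A planned count of the TGACG motif in promoters and a comparison of paralogue proteins were not made, as no sequence was used here. List genes named with a peak width have a midpoint inside the gene or within 1000 bp of it. Other list genes named, and the description of peaks across gene ends, were chosen after their values were seen. The members and lists were chosen with earlier results of these data known. Interval code was tested on simulated peaks (300 windows, 0 mismatches). Python 3.11.15, numpy 2.4.6, pandas 2.3.3 and matplotlib 3.10.9 were used.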

Additional observations from a re-analysis of the deposited data

How the results depend on the processing

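Counts were recomputed with other windows, overlap rules and parts of the peak list, and a count that stayed within 1.5 times its value is not repeated here. With the gene body alone, 4 of 9 members and 14.9% of protein-coding genes had a peak, 7 peaks were counted at members, the medians per member were 0 peaks and 0% of bases, and the lists of the pentose phosphate pathway, ferredoxins and FNR, and sirohaem synthesis, members included, had 3, 1 and 2 genes with a peak. With 1000 bp on either side these were 9 peaks, a median of 2% of bases, 26.7% of protein-coding genes, and 5 and 2 genes of the pentose phosphate and ferredoxin lists. Peaks of at least the median width gave 24.3% of protein-coding genes and 3 pentose phosphate genes, and the first 4001 places of the list gave 24.6%, 5 pentose phosphate genes and 2 genes of molybdenum cofactor synthesis and molybdate transport. Under either of these 6 of 9 members had a peak.

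The difference in peaks, NIA1 minus NIA2, was -1; it was -2 with 1000 bp, with midpoints and with at least 50% of the peak inside the window, -3 with 5000 bp, and 0 with the wider peaks. G6PD2 minus G6PD3 was 1, and 0 with the gene body, with 1000 bp with the wider peaks and with the earlier places. RFNR1 minus RFNR2 was -2, and -1 under those same settings. Starts read as counting from 1 moved no count by more than 1.5 times. No paired analysis was possible because the series has 1 peak list and 1 library per antibody. The unknown depth limits all of this: a gene without a peak has none in this list, and the number of reads there is unknown.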

Other observations

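NIA2 was 1 of 21 protein-coding genes with at least 6 peaks within the gene or 3000 bp on either side. The others included LBD37 with 7 peaks and LBD38 with 6, which encode repressors of nitrate-responsive genes, IAA16, an auxin response repressor, with 7, and BRI1, the brassinosteroid receptor gene, with 6. Among the 21 were also AT1G21000 with 7 peaks, RAD51B and AtPOT1b with 6 each, and further genes not named here. Separate peaks across both gene ends were found at 9 of the 21, NIA2, LBD37, LBD38 and IAA16 among them, beside 1.16% of all protein-coding genes. The 21 were taken for their many peaks, so these shares are not of like genes. These genes were picked out after their values were seen, neighbouring genes among the 21 can share peaks, and no test was made.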
